A study of Mus musculus with 4 samples.

Results

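The mature miRNA cut from a cluster of hairpins inside the gene Clcn5 were followed in cultured cortical neurons of WT and TgAD mice. Of 1966 miRNA listed in each table, 9 make up this set, namely both arms of miR-362, miR-500, miR-501 and miR-532 and the 5p arm of miR-188. The set was chosen by the values of miR-500, since both of its arms were lower in TgAD neurons in these same libraries, and the remaining arms were taken because they share its locus. The comparison of genotypes was therefore used in the choice, and all differences between TgAD and WT neurons of these arms are given as a description without a p value. All 9 arms passed the filter on low counts, as did 496 miRNA in total.

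TgAD (APP/PS1) neurons carry a chimeric mouse/human amyloid precursor protein gene with the Swedish mutations and a human presenilin 1 gene that lacks an exon. Both are driven by mouse prion promoter sequences, so that they are expressed mainly, though not exclusively, in neurons of the brain and spinal cord. WT neurons came from embryos without the transgenes, and each embryo was cultured on its own before genotyping. Cells were taken from the cortex at E16.5 per the labels and kept in culture in serum-free medium for some days, without treatment in either genotype. Small RNA was sequenced in 2 libraries per genotype, with between 2070204 and 4811010 reads counted on miRNA in each. The labels do not state litter, sex or the day of culture, so the tests measure the spread between these libraries and nothing beyond it.

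A miRNA hairpin is cut from a longer transcript by Drosha and then by Dicer into a duplex, from which mostly 1 strand is loaded into an Argonaute protein. The loaded strand finds its target transcripts mainly through its seed, bases 2 to 8 from the 5′ end. Hairpins that lie close together on the same strand can be made from a common primary transcript, and yet the mature arms can reach different levels because each hairpin is processed and each strand is loaded and degraded separately. Clcn5 encodes ClC-5, an endosomal exchanger of chloride and protons that is best known from the kidney. Among the members, miR-188-5p is known in neurons as a regulator of neuropilin-2 in synaptic plasticity, and miR-501-3p as a local regulator of the glutamate receptor subunit GluA1 in dendrites.

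In GENCODE M21 (GRCm38), Clcn5 (ENSMUSG00000004317.14) runs on chromosome X from 7153810 to 7319358 on the minus strand, a length of 165549 bases. In the direction of transcription its hairpins come in the order Mir532 (7248402 to 7248497), Mir188 (7247989 to 7248056), Mir362 (7241982 to 7242046), Mir501 (7241243 to 7241351) and Mir500 (7237683 to 7237774), and no further hairpin of the RefSeq table lies inside the gene. They span 10815 bases, with gaps of 345, 5942, 630 and 3468 bases. All 5 lie in the same intron, which runs from 7213011 to 7316658. It is intron 3 in 2 of the transcripts that cover it and intron 2 in the third. The other 2 of the 5 annotated transcripts of Clcn5 do not cover the hairpins, and none of the hairpins overlaps an exon.

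The mature arms are shown because some of them share a seed with an arm of another hairpin. RefSeq (GRCm38.p6) gave a sequence for 8 of the 9 members, with no entry for miR-532-5p. Capitals mark the seed.

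mmu-miR-362-5p: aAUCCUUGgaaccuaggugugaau
mmu-miR-500-5p: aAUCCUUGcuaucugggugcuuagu
mmu-miR-501-5p: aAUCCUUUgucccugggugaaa
mmu-miR-500-3p: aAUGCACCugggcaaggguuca
mmu-miR-501-3p: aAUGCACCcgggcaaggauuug
mmu-miR-362-3p: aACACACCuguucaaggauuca
mmu-miR-188-5p: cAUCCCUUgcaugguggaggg
mmu-miR-532-3p: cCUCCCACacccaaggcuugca

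miR-500-3p and miR-501-3p have the same seed and are identical at 18 of 22 positions, counted from 1 at the 5′ end of miR-500-3p. The differences are U9C, G18A, C21U and A22G, with the base of miR-500-3p first. miR-362-5p and miR-500-5p also share a seed. The seed of miR-501-5p departs from theirs at its last base, with G8U from miR-500-5p. Each of the 8 sequences occurs exactly in only 1 hairpin of the table. The longest run of bases common to miR-500-3p and miR-501-3p is 8, so that reads of full length tell the pair apart under the mapping without mismatch that the authors used.

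Before the results it must be said that a second deposited table, with normalized values, does not carry the library names of the count tables. Reads recovered from its columns were equal for all 674 of its miRNA to the counts of TgAD replicate 1 in the column named for WT replicate 1, to those of WT replicate 1 in the column named for WT replicate 2, and to those of TgAD replicate 2 in the column named for TgAD replicate 1. The column named for TgAD replicate 2 matched none of the 4 count tables, and at best 4.45% of its values were equal to one of them. The count tables, whose names come with the samples, are used throughout. Values that follow the column names of the normalized table are given beside the called arms, the ratios and the arms whose direction they turn.

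In sum, the marker lists of other cell types ranged from 0 to 1331 CPM per library. The neuronal miR-128-3p was at 18305 and 33040 CPM in WT and at 84058 and 59723 CPM in TgAD neurons and was called higher. miR-137-3p, also neuronal, was called lower, from 3999 and 4008 to 1631 and 1150 CPM. miR-138-5p was at 1654 and 1225 CPM in WT and at 1214 and 651 CPM in TgAD neurons, with a log2 fold change of -0.63 that was not called. miR-9-5p was listed at 0. Both miR-9-5p and miR-16-5p, which had 78.6 to 413 CPM, have more than 1 hairpin in the sequence table. The reason for the 0 was not tested. With miR-124-3p at no more than 2.55 CPM as well, the neuronal label could be checked only in part. All 3 oligodendrocyte markers and both endothelial markers were listed at 0. As the neuronal miR-9-5p was listed at 0 too, this does not show that such cells were absent. The 3 myeloid markers together reached 9.96 to 14.7 CPM with miR-142a-3p at 0, and both mural markers 718 to 901 CPM. The erythroid pair, almost all of it miR-451a, moved with genotype, from 1310 and 1331 CPM in WT to 957 and 646 CPM in TgAD neurons. The part of these markers in the results on the cluster was not tested. In RNA from whole cultures, fewer cells of a type and less RNA per cell cannot be told apart.

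Levels are given in CPM, counts per 1000000 reads after TMM normalization of the libraries, where 1 read stands for 1 small RNA, so that arms of nearly equal length can be set side by side apart from biases in cloning. Together the 9 arms took 0.621% (95% Wilson interval 0.610 to 0.631%) and 0.567% (0.558 to 0.576%) of the reads in the WT libraries. In the TgAD libraries the shares were 0.434% (0.426 to 0.441%) and 0.462% (0.456 to 0.468%). These intervals cover counting error only, since the reads carry no molecular identifiers. The shares are of all counted reads, without TMM, and so depend on the reads of other miRNA. miR-99a-5p alone took 15.814 and 16.662% of the reads in WT and 26.983 and 31.807% in TgAD libraries. The lower shares in TgAD libraries are therefore not read as a lower level of the cluster. After TMM the genotypes overlapped for miR-532-5p, the arm with most of these reads.

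A single arm carried most of the cluster. miR-532-5p stood at 4184 and 4000 CPM in WT and at 3360 and 4517 CPM in TgAD neurons, rank 31 of the 496 tested miRNA by mean level. It made up 74.6 to 76.5% of the cluster's reads in WT and 77.1 and 81.8% in TgAD libraries. Next in WT neurons came miR-362-5p with 399 ± 68.2 CPM (SD, n = 2), then miR-501-3p with 274 ± 34.2 and miR-362-3p with 257 ± 24.1. The last pair did not differ beyond their spread. miR-532-3p (175 ± 9.27 CPM), miR-500-3p (130 ± 10.5), miR-188-5p (47.5 ± 12.3), miR-501-5p (24.7 ± 7.28) and miR-500-5p (15.0 ± 0.696) followed. The level of miR-500-5p was under that of miR-501-5p in both WT libraries. The opposite arm of miR-188, miR-188-3p, is no member and had 4 reads in each of the libraries, too few to test.

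The order of the levels was not the same in TgAD neurons. There miR-501-3p, at 315 ± 23.9 CPM (SD, n = 2), lay above miR-362-5p at 220 ± 53.0 in both libraries, and miR-500-3p at 46.1 ± 24.4 overlapped with miR-188-5p at 50.9 ± 17.8 CPM. miR-362-3p and miR-532-3p, at 185 ± 35.9 and 164 ± 4.78 CPM, did not differ beyond their spread. The plot of levels by arm shows these shifts.

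**Figure D1:**
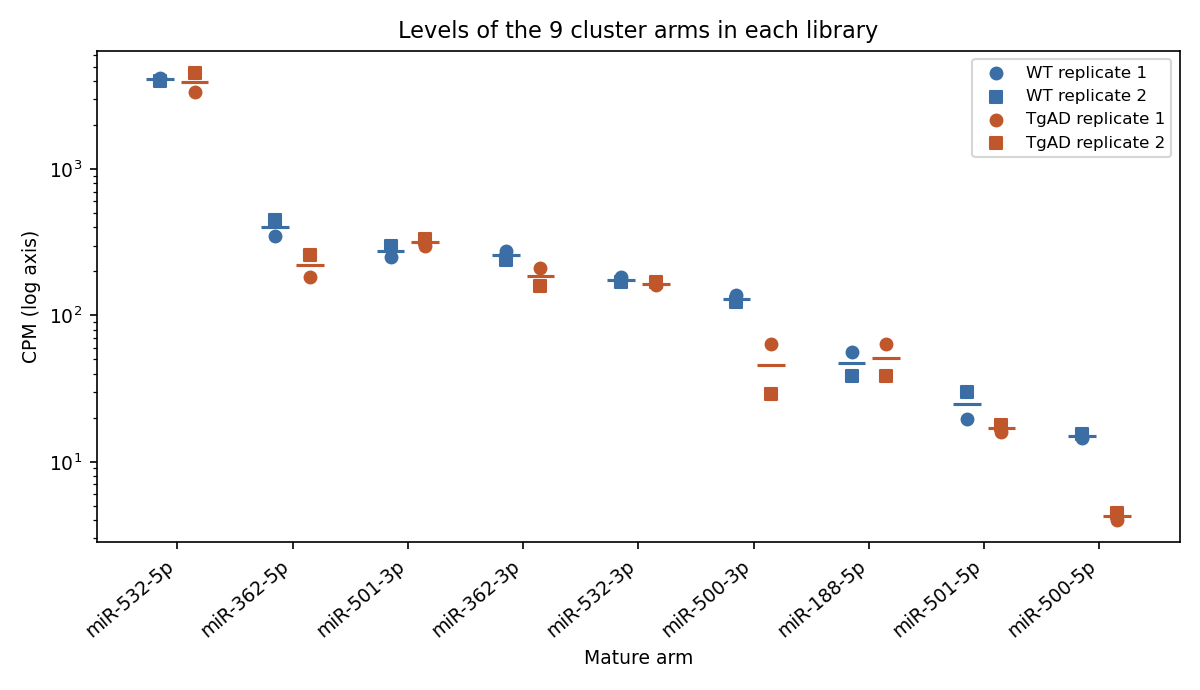
CPM (log axis) of the 9 arms in each of the 4 libraries, ordered by the mean level in WT neurons; points are libraries and short lines are means of 2. For miR-500-3p and miR-500-5p the TgAD libraries lie far under the WT libraries, while those of miR-532-5p and miR-188-5p overlap.

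The question put to the cluster was whether its arms move as a unit. edgeR's quasi-likelihood test was fitted across all 496 tested miRNA, and a miRNA is called here when its log2 fold change exceeds 0.6 in size and its adjusted p is under 0.1, the study's own cutoffs. By this rule 3 of the 9 arms were called, miR-500-5p, miR-500-3p and miR-362-5p, all lower in TgAD neurons, beside 33.1% of all tested miRNA called in either direction and 17.3% called as lower. The choice of the cluster used this contrast, and nothing is read from the count. The median log2 fold change was -0.48 over the 9 arms, -0.09 over the 7 arms other than miR-500, and 0.03 over all tested miRNA. The log2 fold changes of the 9 arms ran from -1.80 to 0.20, a range of 2.01, whose lower end is set by the arms of miR-500 that were selected for it. The 7 other arms ran from -0.85 to 0.20, a range of 1.06, with an SD of 0.386. For 6 of the 9 arms the higher TgAD library was still lower than either WT library, as for 32.5% of all tested miRNA. In 1 arm, miR-501-3p, both TgAD libraries lay above the WT pair, as for 30.6%. The 6 include both arms of miR-500, which were selected as lower. They also include miR-532-3p, at 168.6 CPM in WT replicate 2 and 167.8 CPM in TgAD replicate 2. Nothing is read from this count either. With 2 against 2 libraries an exact permutation test of a single arm cannot go below a two-sided p of 0.333.

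miR-500, the last hairpin of the cluster, was the lowest relative to WT. miR-500-3p had 137 and 123 CPM in WT and 63.4 and 28.8 CPM in TgAD neurons, from 323, 357, 174 and 116 reads. Its TgAD libraries lay below the WT pair but also apart from each other. The log2 fold change was -1.51 (standard error 0.384), or -2.27 without TgAD replicate 1 and -1.005 without TgAD replicate 2. miR-500-5p had 14.5 and 15.5 CPM in WT and 4.01 and 4.48 CPM in TgAD neurons, from only 34, 45, 11 and 18 reads. Here both pairs were tight, and the log2 fold change of -1.80 (standard error 0.339) stayed between -1.86 and -1.77 with each library left out. Following the column names of the normalized table, the log2 fold changes were -0.60 for the 3p arm and -0.59 for the 5p arm, and neither was called. In that fit edgeR called 0 of 480 tested miRNA, of which 54 had an unadjusted p under 0.05, and 0 of the 9 arms had one.

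miR-362, whose hairpin lies upstream beyond Mir501, had smaller negative log2 fold changes on both arms, and only the 5p arm was called. miR-362-5p had 351 and 447 CPM in WT and 183 and 258 CPM in TgAD neurons. The libraries did not overlap, and the log2 fold change was -0.85 (standard error 0.250). The arm was no longer called without WT replicate 2, at -0.68, or without TgAD replicate 1, at -0.73. It was also not called after correction of each library for GC content, at -0.47, nor with the names of the normalized table, at -0.60. miR-362-3p had 274 and 240 CPM in WT and 210 and 159 CPM in TgAD neurons. Its log2 fold change of -0.48 (standard error 0.223) was not called, although it was without TgAD replicate 1, at -0.79, and with total counts as library size, at -0.73. The log2 fold change of miR-362-3p was -0.26 without TgAD replicate 2 and only -0.043 after the correction for GC content. With the names of the normalized table it was -0.75 and not called. Total counts as library size shifted the median log2 fold change of all tested miRNA by -0.27, and of the miRNA it called 122 were lower and 43 higher, against 86 lower and 78 higher with TMM.

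miR-501, the hairpin between these, had log2 fold changes of opposite sign on its arms, and neither arm was called. Its 3p arm is the closest to miR-500-3p in identical bases among the 3p arms of the cluster. miR-501-3p had 249 and 298 CPM in WT and 298 and 332 CPM in TgAD neurons. WT replicate 2 and TgAD replicate 1 were less than 1 CPM apart. The log2 fold change of 0.20 (standard error 0.201) was not called, and it was -0.058 with total counts as library size and -0.094 after the correction for GC content. miR-501-5p had 19.6 and 29.9 CPM in WT and 16.0 and 17.9 CPM in TgAD neurons, a log2 fold change of -0.55 (standard error 0.316) that was not called. Without WT replicate 2 it was -0.22.

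With TMM and no correction for GC content, the arms of the hairpins at the start of the cluster had log2 fold changes near 0, none of them called. For miR-532-5p the log2 fold change was -0.06 (standard error 0.218), and its TgAD libraries lay on either side of the WT pair. miR-532-3p had 182 and 169 CPM in WT and 161 and 168 CPM in TgAD neurons, a log2 fold change of -0.09 (standard error 0.195). For this arm it was -0.36 with total counts as library size and -0.37 after the correction for GC content. miR-188-5p had 56.2 and 38.8 CPM in WT and 63.4 and 38.3 CPM in TgAD neurons. Its libraries overlapped, and the log2 fold change of 0.10 (standard error 0.341) turned to -0.40 without TgAD replicate 1 and to -0.16 without WT replicate 2, so that no direction was determined. With the names of the normalized table the log2 fold changes were -0.94 for miR-188-5p and 0.64 for miR-532-5p. The plot by position sets these values along the intron.

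**Figure D2:**
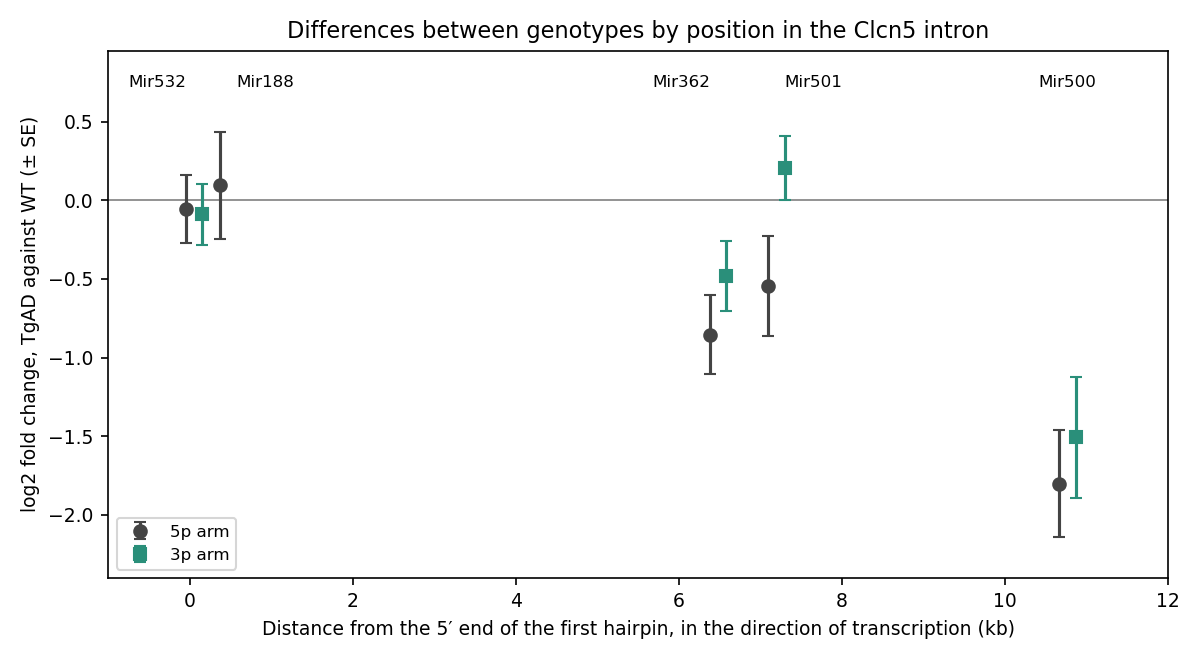
Log2 fold change of TgAD against WT neurons (points, with standard errors as bars) of the 5p and 3p arms, against the distance of each hairpin's middle from the 5′ end of Mir532 in kb; the arms of a hairpin are moved apart slightly for display. Mir532 and Mir188 lie near 0, both arms of Mir362 lie below, the 3p arm of Mir501 lies at 0.20 and its 5p arm at -0.55, and both arms of Mir500 lie lowest.

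Ratios between arms within a library do not depend on how libraries are scaled. Their numerators here are the arms of miR-500, which were selected as lower in TgAD neurons. Lower ratios in TgAD libraries therefore follow in part from the choice and are given as a description. For each read of miR-501-3p WT neurons had 0.551 and 0.412 reads of miR-500-3p, and TgAD neurons 0.212 and 0.0868. As shares of the reads of both, miR-500-3p made up 35.5% (95% Wilson interval 32.5 to 38.7%) and 29.2% (26.7 to 31.8%) in WT. In TgAD neurons the shares were 17.5% (15.3 to 20.0%) and 8.0% (6.70 to 9.50%). The 4 intervals do not overlap, so the libraries of a genotype also differed by more than counting error. The mean log2 ratio was -1.07 ± 0.298 in WT and -2.88 ± 0.913 in TgAD neurons (SD, n = 2), a difference of -1.81, which was -2.46 without TgAD replicate 1 and -1.17 without TgAD replicate 2.

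The 5p arms gave the same direction from fewer reads. Since both arms of miR-500 were selected as lower, this is not independent of the choice. miR-500-5p had 0.739 and 0.517 reads for each read of miR-501-5p in WT and 0.250 in both TgAD libraries. The shares of 42.5% (95% Wilson interval 32.3 to 53.4%) and 34.1% (26.6 to 42.5%) in WT stood against 20.0% (11.6 to 32.4%) and 20.0% (13.0 to 29.4%) in TgAD neurons, so that single intervals of the genotypes overlapped. Their mean log2 ratios differed by -1.31. Neither ratio kept its separation with the column names of the normalized table. There the reads of miR-500-3p for each read of miR-501-3p were 0.212 and 0.551 in WT and 0.0868 and 0.380 in TgAD columns, which overlap, with a difference of -0.91 in mean log2 ratio. For the 5p arms the difference turned to 0.29.

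**Figure D3:**
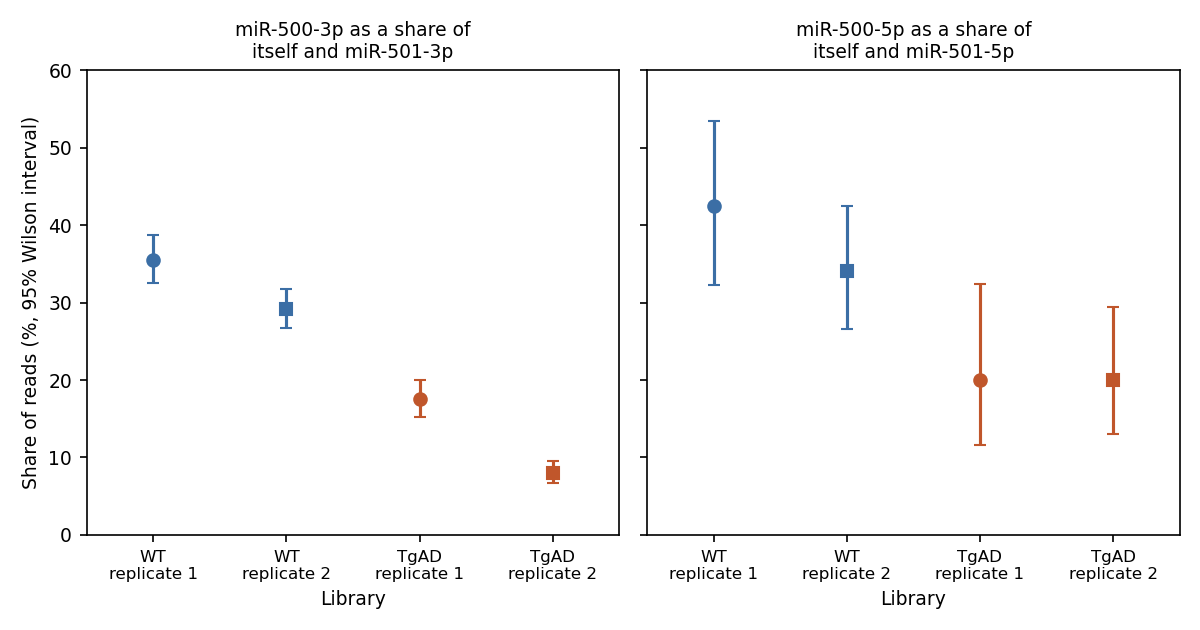
Reads of miR-500-3p as a share of those of miR-500-3p and miR-501-3p (left), and the same for the 5p arms (right), in percent per library, with 95% Wilson intervals as bars that cover counting error only. On the left the TgAD libraries, at 17.5 and 8.0%, lie under the WT libraries at 35.5 and 29.2%; on the right both TgAD libraries lie at 20.0%.

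Summed by seed, the arms gave unequal differences. The seed AUGCACC, carried by miR-500-3p and miR-501-3p, averaged 404 ± 23.7 CPM across the WT pair and 361 ± 0.592 CPM across the TgAD pair (SD, n = 2), a log2 ratio of means of -0.16. miR-501-3p supplied most of these reads in all 4 libraries. The seed AUCCUUG of miR-362-5p and miR-500-5p had 365 and 463 CPM in WT and 187 and 262 CPM in TgAD neurons, a log2 ratio of means of -0.88. Outside the cluster, miR-329-3p has the seed ACACACC of miR-362-3p. It had 703 and 702 CPM in WT and 744 and 771 CPM in TgAD neurons, with a log2 fold change of 0.11 (standard error 0.177) that was not called.

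The arms of a hairpin come from the same precursor, and their ratio varied between hairpins and libraries. miR-532 gave 0.0372 to 0.0479 reads of its 3p arm for each read of its 5p arm over the 4 libraries. miR-500 and miR-501 were instead made up mostly of the 3p arm. The ratio for miR-501 was 12.7 and 10.0 in WT and 18.6 in both TgAD libraries, without overlap. Its 5p arm had only 46 and 87 reads in WT and 44 and 72 in TgAD libraries. How many other hairpins show no overlap was not determined, so nothing is read from this separation. For miR-500 the ratio was 9.50 and 7.93 in WT and 15.8 and 6.44 in TgAD libraries, and for miR-362 it was 0.782 and 0.537 against 1.15 and 0.617, both with overlap. The log2 fold changes of the arms were 0.04 apart for miR-532, 0.30 for miR-500, 0.38 for miR-362 and 0.75 for miR-501. Over 107 other hairpins with both arms tested, the median distance was 0.73 and the middle 50% of hairpins lay between 0.30 and 1.23. Both arms of miR-500 were selected as low, so the distance between them is not read against these hairpins.

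Other clusters are given for scale, with no test. Among groups of hairpins on the same strand with gaps of at most 10000 bases, at least 3 hairpins and at least 6 tested arms, 5 were found with the Clcn5 cluster included. The SD of log2 fold changes was 0.709 over its 9 arms and 0.386 without the arms of miR-500 that were selected as low, so that its place among the clusters is not read. The others ran from 0.688 for the cluster that holds Mir322 and Mir542, also on chromosome X, to 0.905 for that of Mir106b and Mir93. Of 39 other X-linked miRNA tested, 6 were called lower and 4 higher in TgAD neurons, with a median log2 fold change of 0.06. The lowest were miR-98-3p and miR-98-5p, at -2.12 and -1.73, and the highest miR-361-3p and miR-7093-3p, at 1.13 and 2.09.

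The profile of miR-500-3p over the 4 libraries was set against 485 tested miRNA outside the cluster that had reads in every library, as the Euclidean distance of log2 CPM centred on the mean of each miRNA. The nearest were miR-19b-3p at a distance of 0.228, miR-16-5p at 0.311, miR-670-3p at 0.358, miR-544-5p at 0.393 and miR-18a-5p at 0.396. miR-19b-3p and miR-16-5p each come from more than 1 hairpin. The former had 19.2 and 17.9 CPM in WT and 8.38 and 4.72 CPM in TgAD neurons, so it too was lower in TgAD replicate 2 than in TgAD replicate 1. The nearest arm of the cluster was miR-500-5p at 0.959, and the most distant was miR-501-3p at 2.05. The 5 named miRNA are the nearest of 485, so their distances are not compared with those of the few arms. As miR-500-5p was selected as low together with miR-500-3p, its place among the arms is not read. The points of such a profile share 4 libraries and their scaling, and the distance is a description.

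**Figure D4:**
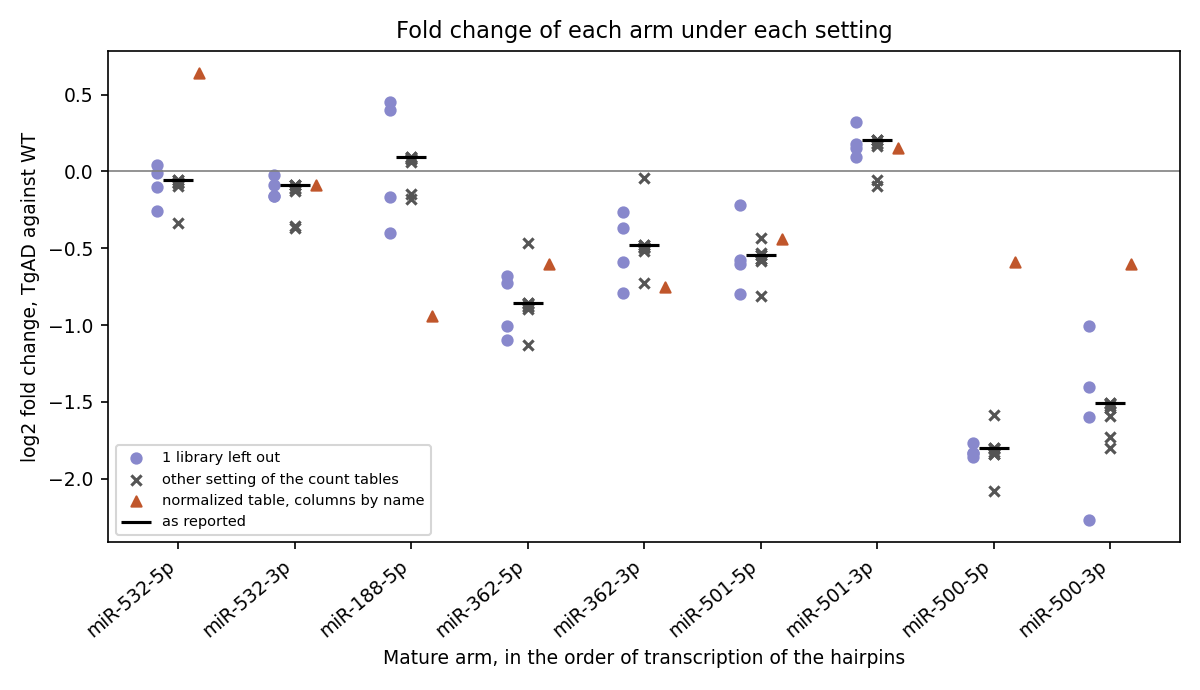
Log2 fold change of TgAD against WT for each arm, in the order of transcription of the hairpins, as reported (bar), with 1 library left out (circles), under other settings of the count tables (crosses) and with the columns of the normalized table taken by name (triangles). With the count tables both arms of miR-500 stay below -1, whereas miR-188-5p lies on both sides of 0.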

How the data were processed

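Small RNA libraries of cortical neurons, 2 per genotype, were compared. The authors mapped adapter-free reads to GRCm38 with Bowtie2 without mismatch, counted them on the mature miRNA of miRBase with HTSeq-count, and deposited these counts without normalization. Versions of these tools are not given in the sources used here. How reads with several placements were counted is not stated, and each member with a sequence has a single locus. The deposited normalized signal is counts over a size factor for each column, equal to 4 decimals to the median-of-ratios factor used by DESeq2. All of its values (100% within a tolerance of 0.001 reads) were whole reads after division by the worth of 1 read, and edgeR on them called 0 miRNA.

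Counts were tested in edgeR 4.0.16 (limma 3.58.1, R 4.3.3) by the quasi-likelihood test on the 496 miRNA passing filterByExpr, after TMM, with genotype as the only factor. p values were adjusted by Benjamini and Hochberg over all of them, and a standard error is the size of the log2 fold change over the root of F. A floor of 3 reads corresponds to 0.746 to 1.28 CPM. The members and lists were chosen with earlier results of these data known. Named miRNA are the members, the other arms of hairpins inside Clcn5, tested miRNA with a member's seed, the 2 highest and the 2 lowest other X-linked miRNA, and the 5 nearest to miR-500-3p, beside lists of cell type markers. The miRNA with the most reads in each library, miR-99a-5p, is named as well. Sequences, from RefSeq for GRCm38.p6, matched 1675 of 1966 listed miRNA by name. The procedure was tested on simulated data.

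Alternatives were RLE normalization, library sizes from total counts without further scaling, leaving out the filter, at least 10 reads in every library, DESeq2 1.42.0 with default settings, the robust fit, the replicate number as a block, stricter cutoffs (1 and 0.01 in place of 0.6 and 0.1), leaving out each library, and a correction for the GC content of the mature miRNA by local regression (span 0.75, prior count 2), in which miR-532-5p had no value. The use of the normalized table by its column names, for the arms and the ratios, was chosen after seeing the data.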

Additional observations from a re-analysis of the deposited data

How the results depend on the processing

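The number of called arms was 3 under RLE normalization, no filter, 10 reads in every library, DESeq2 and the robust fit, beside 33.1, 16.4, 36.0, 29.1 and 33.5% of all tested miRNA called. It was 4 with total counts (33.3%), 2 with the correction for GC content (31.1%), and between 2 and 3 with a library left out (21.9 to 26.7%), when the lone library of a genotype was taken to vary like the pair of the other. It was 0 with the normalized table by column names (edgeR, 0 of the 9 arms with an unadjusted p under 0.05) and 0 at the stricter cutoffs in edgeR, where 3 arms had an unadjusted p under 0.05 and DESeq2 called 1, miR-500-3p. The range of log2 fold changes over the arms was 1.58 with the normalized table and 2.09 to 2.45 with a library left out. The differences of log2 ratio of miR-500 to miR-501 lay between -2.46 and -1.17 (3p) and between -1.56 and -1.05 (5p) with a library left out, against -1.77 for the totals of both arms of each hairpin, which are mostly 3p reads. With the normalized table they were -0.91 (3p) and 0.29 (5p, turned). The direction turned for miR-188-5p with total counts (-0.15), the correction for GC content (-0.18), the normalized table (-0.94), and without WT replicate 2 (-0.16) or TgAD replicate 1 (-0.40), with a range of -0.40 to 0.45 over the libraries left out. It turned for miR-501-3p with total counts (-0.058) and the correction for GC content (-0.094), and for miR-532-5p (range -0.25 to 0.045) with the normalized table (0.64) and without TgAD replicate 1 (0.045). The cause was not tested.

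The labels give both genotypes the same replicate numbers but no shared litter or day. Deviations of same-numbered libraries had a correlation of 0.216 over 496 miRNA, from 2 pairs. With the replicate number as a block, 3 arms were called, the range was 2.01, and it changed no call on the cluster, while 188 miRNA were called in place of 164. Depth limits miR-500-5p most, with 11 and 18 reads in TgAD libraries.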
